A study of Saccharomyces cerevisiae with 100 samples.

Results

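Histone deacetylases remove acetyl groups from histone tails and, in budding yeast, work inside multisubunit complexes that repress transcription. Rpd3 is the catalytic subunit of Rpd3L, which is found mainly at promoters, and of Rpd3S, which acts within transcribed regions. Set3C and the Hda1 complex hold other deacetylases, and the Sir proteins build the silent chromatin of the mating-type loci and telomeres through the NAD-dependent deacetylase Sir2. Histone methyltransferases and the JmjC demethylases set and remove methyl groups on histone H3, and Rap1 with the Rif proteins binds telomeres.

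The 39 genes described here encode these proteins. They were taken as a list of systematic names, and each single-nucleotide variant (SNV) that the deposited tables assign to one of the 39 was counted. All 39 names were found in the gene table of the R64 assembly, which lists 6021 protein-coding genes. Of the 39 genes, 17 had an SNV in at least 1 of the 3 tables and 22 had none. The 39 genes held 23 of the 3092 SNVs listed in all. In the whole series 1660 genes had an SNV in at least 1 table, a count that is not limited to protein-coding genes.

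Genomic DNA of 100 haploid strains derived from W303 was sequenced, with 1 library per strain, to find mutations that suppress the sensitivity of rad53Δ checkpoint mutants to methyl methanesulfonate (MMS), an alkylating agent. The batch consisted of 95 suppressors (MATa sml1Δ::URA3 rad53Δ::LEU2), each isolated on MMS plates, and the control strain YJT75 of the same labelled genotype. All of these strains therefore lack Rad53, a checkpoint kinase, and Sml1, an inhibitor of ribonucleotide reductase. YMS6, whose label gives its mating type (a) and the W303 markers but no deletion and which the paper describes as exo1Δ rad53Δ, was compared with YGDP939 (sml1Δ::URA3 rad53Δ::LEU2 exo1Δ::HIS3). S64Bα was compared with W64Aα, both of mating type α and lacking SML1, EXO1, CHK1 and RAD53 (sml1Δ::URA3, exo1Δ::TRP1, chk1Δ::LEU2 and rad53Δ::HIS3), and S64Bα is a suppressor that had been backcrossed repeatedly to its parent.

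The values are allele frequencies, that is, of the reads of a library over a position, the share with the alternative base. An SNV present in every cell of a haploid culture has an allele frequency near 1.0. SNVs were counted from 0.7 upwards, the minimum of a further filter that the study applied to nonsynonymous SNVs after calling. The deposited minimum of 0.40, at which the study called SNVs in the batch, is given where it changes a count. The study also returns to 0.40 when it assigns suppressors to pathways, among them Rpd3L, silencing and mRNA decay. An SNV was counted as nonsilent where it changed an amino acid, gained a stop codon, or removed a start or stop codon. The tables give no depth, so allele frequencies have no interval, and no strain has a replicate library. Positions are those of the sacCer2 assembly, on the reference strand.

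In the 95 suppressors, 14 nonsilent and 4 synonymous SNVs reached 0.7 in the 39 genes. Of the nonsilent SNVs, 12 were missense and 2 were nonsense, and each of the 14 was found in 1 suppressor only. They lay in 12 genes (RPH1, JHD2, RPD3, SAP30, SNT1, HDA2, HOS3, SIR1, SIR4, ESC1, SUM1 and RIF1). The exact 95% Poisson interval of the 14 SNVs, which covers counting error only, was 7.65 to 23.5. They were carried by 12 of the 95 suppressors (12.6%, exact Clopper-Pearson 95% interval 6.70% to 21.03%).

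The 12 genes were 30.8% of the 39, and 16.5% of all 6021 protein-coding genes had a nonsilent SNV at 0.7 in 1 or more suppressors. At the deposited minimum SIR3 was added, giving 13 of 39 genes (33.3%), where 19.4% of all protein-coding genes were hit. Of the 12 genes, the study names RPH1, RPD3 and SAP30 as mutated in these suppressors. Nonsilent SNVs in them were found here in SUP7, SUP53 and SUP69, fewer suppressors than the study counts. SUP13 has a synonymous SNV in RPD3. The study tested SIR1, SIR4, ESC1, SUM1 and RIF1 by deletion, chosen as mutated in suppressors. Of these it reports suppression for SIR1, SIR4 and ESC1. It also deleted RPH1, RPD3 and JHD2 in rad53Δ cells, and reports suppression for RPH1 and RPD3 but not JHD2. The 39 genes were listed with such results known, so the difference from all genes is given as a description and nothing about the complexes is read from it. Gene length was not taken into account in these shares, and its part in the difference was not tested.

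Synonymous SNVs, which leave the protein unchanged, give a second reading of the same genes. Of the 39 genes, 4 (10.3%) carried a synonymous SNV at 0.7, and 6.64% of all protein-coding genes did. Nonsilent SNVs made up 77.8% of the coding SNVs in the 39 genes (14 of 18, exact Clopper-Pearson 95% interval 52.4% to 93.6%). In all other protein-coding genes the share was 73.4%, from 1182 nonsilent and 429 synonymous distinct SNVs (interval 71.1% to 75.5%), which lies inside the interval of the 39 genes.

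**Figure D1:**
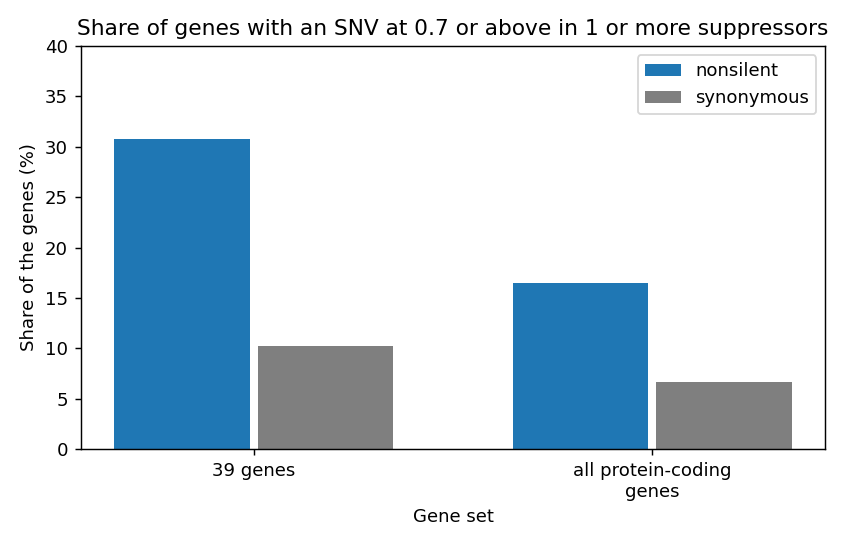
Share of genes (%, y axis) with a nonsilent (blue) or synonymous (grey) SNV that reached 0.7 in 1 or more suppressors, for the 39 genes and for all 6021 protein-coding genes (x axis). The nonsilent share is 30.8% and 16.5%, and the synonymous share is 10.3% and 6.64%. The shares are not adjusted for gene length.

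By complex, the Sir proteins, Esc1 and Sum1 carried 4 nonsilent SNVs in 4 of 6 genes, where 16.5% of all protein-coding genes were hit. These genes are SIR1, SIR4, ESC1 and SUM1, which the study chose for deletion as mutated in these suppressors. Set3C carried 3 nonsilent SNVs, all in SNT1, and the demethylases and the Hda1 and Hos deacetylases carried 2 each. The 12 genes of Rpd3L carried 2 nonsilent and 4 synonymous SNVs. The tables list no SNV in the 3 methyltransferase genes or in the 2 genes specific to Rpd3S. With counts this small, no order among the complexes can be read from them.

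**Figure D2:**
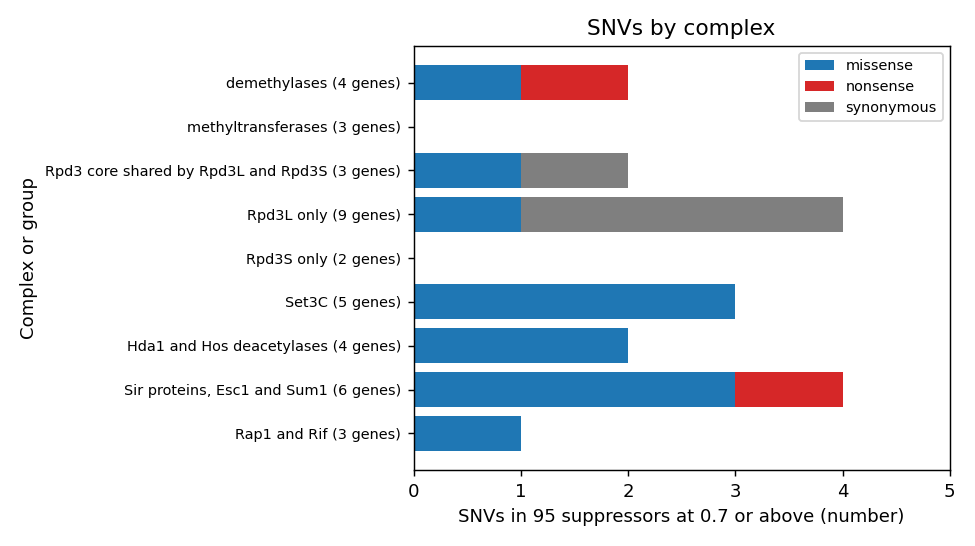
Number of SNVs that reached 0.7 in the 95 suppressors (x axis) for each complex or group of genes (y axis, with its number of genes), split into missense (blue), nonsense (red) and synonymous (grey). The genes found only in Rpd3L form the one group with more synonymous than nonsilent SNVs. The Sir group has the most nonsilent SNVs, 4, all in genes that the study chose as mutated in these suppressors.

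RPH1 (YER169W, chromosome V) encodes a JmjC demethylase that also represses transcription, and it was the only one of the 39 genes with an SNV in more than 1 of the tables. Both of its SNVs were nonsense. In SUP7 the change was A523712T, at an allele frequency of 0.994, and in S64Bα it was A524729T, at 0.951. Each was listed at 0 in the respective control, and the highest value of the first in any other suppressor was 0.0053. RPH1 is read in the direction of the reference strand, so both are A-to-T changes of the coding strand, which make a stop codon from AAA, AAG or AGA. For S64Bα the study gives a stop in place of arginine, which leaves AGA. In the study, rad53Δ chk1Δ exo1Δ cells with that truncation rebuilt survived MMS about as well as the original suppressor. The stop of SUP7 lies 1017 bases, or 339 codons, nearer the start of the gene than that of S64Bα, and thus shortens the protein further.

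Among the other demethylase genes, JHD2 (YJR119C, chromosome X), whose product acts on methylated lysine 4 of histone H3, carried a missense SNV in SUP1 (C644484A, allele frequency 1.0). No SNV was listed in GIS1, the paralog of RPH1, or in JHD1. The methyltransferase genes SET1, SET2 and DOT1, whose products write the H3 methyl marks, were likewise without an SNV in every table.

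Rpd3L was mutated by a stop codon in YMS6 and by missense SNVs in the batch. RXT2 (YBR095C, chromosome II), which encodes a subunit specific to Rpd3L, carried the nonsense SNV G435389A in YMS6, at an allele frequency of 1.0 against 0 in YGDP939. Its coding strand runs opposite to the reference, so the change is C-to-T in the gene, which makes a stop codon from CAA, CAG or CGA. The study gives it as a stop in place of glutamine, which leaves CAA or CAG. It rebuilt this truncation and reports partial suppression of the MMS sensitivity of rad53Δ. It was the only SNV in the 39 genes in YMS6, and the RPH1 SNV was the only one in S64Bα, also at the deposited minimum of 0.25. No suppressor of the batch had an SNV in RXT2.

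RPD3 (YNL330C, chromosome XIV), the gene of the catalytic subunit, carried the missense SNV T18611A in SUP53 at an allele frequency of 0.982. It also carried a synonymous SNV in SUP13 (A18655G, allele frequency 1.0), 44 bases nearer the start of the gene. SAP30 (YMR263W, chromosome XIII), encoding a subunit specific to Rpd3L, carried the missense SNV A795504G in SUP69 at 1.0. SUP53 and SUP69 were the only suppressors with a nonsilent SNV in an Rpd3L gene.

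The other SNVs in Rpd3L genes were synonymous. SDS3 (YIL084C, chromosome IX), whose product is needed for the integrity of the complex, had T202357C in SUP8. UME6 (YDR207C, chromosome IV), the DNA-binding repressor that brings Rpd3L to early meiotic genes, had G866741T in SUP104. CTI6 (YPL181W, chromosome XVI), encoding a PHD-finger subunit, had C203950G in SUP63. All 3 were at an allele frequency of 1.0. SIN3 and UME1, shared with Rpd3S, and PHO23, RXT3, DEP1 and ASH1 had no SNV, and neither did EAF3 and RCO1 of Rpd3S.

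SNT1 (YCR033W, chromosome III), the gene of a scaffold subunit of Set3C, was the only one of the 39 with nonsilent SNVs in more than 1 suppressor at 0.7. It carried the missense SNVs C187881G in SUP45, C188031T in SUP86 and G188435T in SUP79, each at an allele frequency of 1.0 and at 0 in YJT75. The SNV of SUP86 lies 150 bases, or 50 codons, beyond that of SUP45, and the SNV of SUP79 a further 404 bases on, so that the 3 positions span 554 bases. In the batch, 26 protein-coding genes had at least 3 distinct nonsilent SNVs in at least 3 suppressors. Gene length was not taken into account in this count. The remaining Set3C genes on the list, which are SET3, SIF2 and the deacetylase genes HOS2 and HST1, had no SNV.

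The Hda1 and Hos deacetylase genes were hit in a single strain. SUP1 carried missense SNVs in HDA2 (YDR295C, chromosome IV, C1054575T), a noncatalytic subunit of the Hda1 complex, and in HOS3 (YPL116W, chromosome XVI, A330598T), a deacetylase, both at an allele frequency of 1.0. The HDA2 position had the highest value of all in suppressors that do not carry the SNV, 0.0402, and the HOS3 position was at 0 in all of them. HDA1 and HOS1 had no SNV. Of the 7 catalytic deacetylase genes on the list (RPD3, HDA1, HOS1, HOS2, HOS3, HST1 and SIR2), RPD3 and HOS3 thus carried a nonsilent SNV. Among all protein-coding genes 16.5% did, and RPD3 is one of the genes that the study names as mutated.

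The other nonsense SNV of the batch in the 39 genes was in a silencing gene. SIR4 (YDR227W, chromosome IV), which encodes a scaffold of silent chromatin, had G917976T in SUP13 at an allele frequency of 1.0. The change is G-to-T on the coding strand, which makes a stop codon from GAA, GAG or GGA. ESC1 (YMR219W, chromosome XIII), encoding a protein of the nuclear periphery that anchors telomeres, had the missense SNV A710235G in SUP10, and SUM1 (YDR310C, chromosome IV), encoding a repressor of meiotic genes that works with Hst1, had T1082507C in SUP82, both at 1.0. RIF1 (YBR275C, chromosome II), the gene of a Rap1-binding protein that limits telomere length, had the missense SNV A753950G in SUP6, also at 1.0. SIR2, RIF2 and RAP1 had no SNV.

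SIR1 and SIR3 were the genes with SNVs below 0.7. SIR1 (YKR101W, chromosome XI), whose product recruits the other Sir proteins to the mating-type silencers, carried the missense SNV C641178A in SUP84 at 0.994 and A641945G in SUP103 at 0.605, 767 bases apart. Of the 40 SNVs of SUP103 outside chromosome XII, that in SIR1 was the only one under 0.7, and the median was 1.0. SIR3 (YLR442C, chromosome XII), whose product binds deacetylated histone tails, carried missense SNVs in SUP112 (G1020756T, allele frequency 0.606) and SUP47 (G1020886T, 0.590), 130 bases apart.

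SNVs under 0.7 were common on the chromosome of SIR3. On chromosome XII 365 of 409 SNVs of the batch (89.2%) were under 0.7, against 4.79% on the other chromosomes. The chromosome XII SNVs of SUP112 lay between 0.441 and 0.606, with a median of 0.504, the SIR3 SNV being the highest of 7. On its other chromosomes all SNVs of SUP112 lay at 0.991 or above. In SUP47, 12 of 14 SNVs outside chromosome XII were under 0.7 as well, with a median of 0.639. A minimum of 0.7 therefore leaves out both SNVs of SIR3, which with RIF2 is one of the listed genes on chromosome XII. The part of these strain-wide and chromosome-wide levels in the SIR3 values was not tested.

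At the deposited minimum the 39 genes carried 17 nonsilent SNVs in 15 suppressors, with allele frequencies from 0.590 to 1.0 and a median of 1.0. The 14 that reached 0.7 all lay at 0.982 or above, and 11 of them were at 1.0. Every SNV in the 39 genes was listed at 0 in YJT75.

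**Figure D3:**
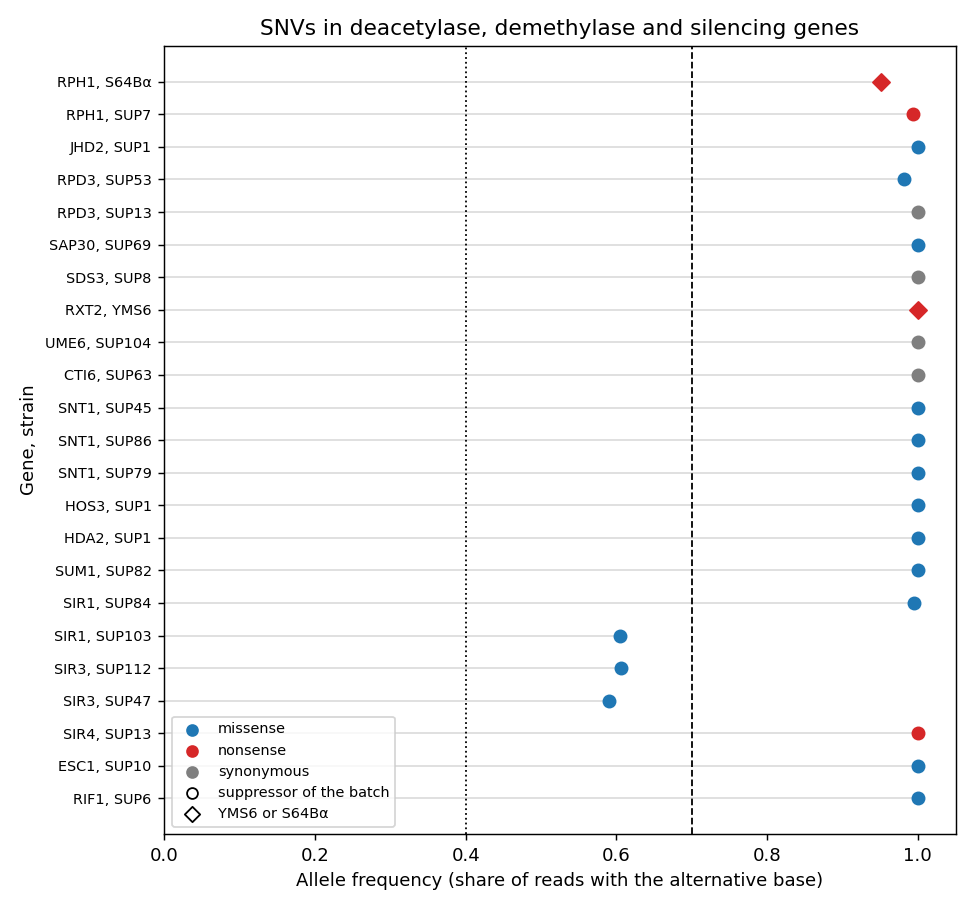
Allele frequency (x axis, share of reads) of each SNV in the 39 genes, one line per gene and strain (y axis), coloured by missense (blue), nonsense (red) and synonymous (grey). Circles are suppressors of the batch and diamonds are YMS6 and S64Bα, and the dotted and dashed lines mark 0.40 and 0.7. The SNVs of SIR1 in SUP103 and of SIR3 in SUP112 and SUP47 lie between 0.590 and 0.606, and all others lie at 0.951 or above.

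Nonsilent SNVs in more than 1 of the 39 genes were found together in 1 suppressor. SUP1 carried missense SNVs in HDA2, JHD2 and HOS3, 11 suppressors carried 1 nonsilent SNV in these genes and 83 carried none. Without SUP1 there were 11 nonsilent SNVs in 9 genes (23.1%). SUP13 combined the SIR4 nonsense SNV with the synonymous SNV in RPD3.

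The suppressors with a nonsilent SNV in these genes carried many others besides. They had between 6 and 27 nonsilent SNVs at 0.7, with a median of 20.5, and 9 of the 12 were above the median of all 95 suppressors, which was 14. Whether this higher number of SNVs has a part in the counts above was not tested. SUP53 had the fewest, 5 beside that in RPD3, while SUP7 had 26 beside the RPH1 nonsense SNV, and one of these was a nonsense SNV in ECM4. SUP45, with an SNV in SNT1, also had 26 others. Nonsense SNVs in genes outside the list were present in 4 of the 12, and 35 of all 95 suppressors had a nonsense SNV in some gene.

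Some of the 12 also carried a missense SNV in a gene of mRNA decay, the other process that the study names. SUP6, with the RIF1 SNV, had one in the decapping enzyme gene DCP2, and SUP79 and SUP86, both with an SNV in SNT1, had one in the exonuclease gene XRN1. These are 3 of 12 suppressors, and 13 of the 95 had a nonsilent SNV in NMD2, XRN1, UPF3 or DCP2.

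**Figure D4:**
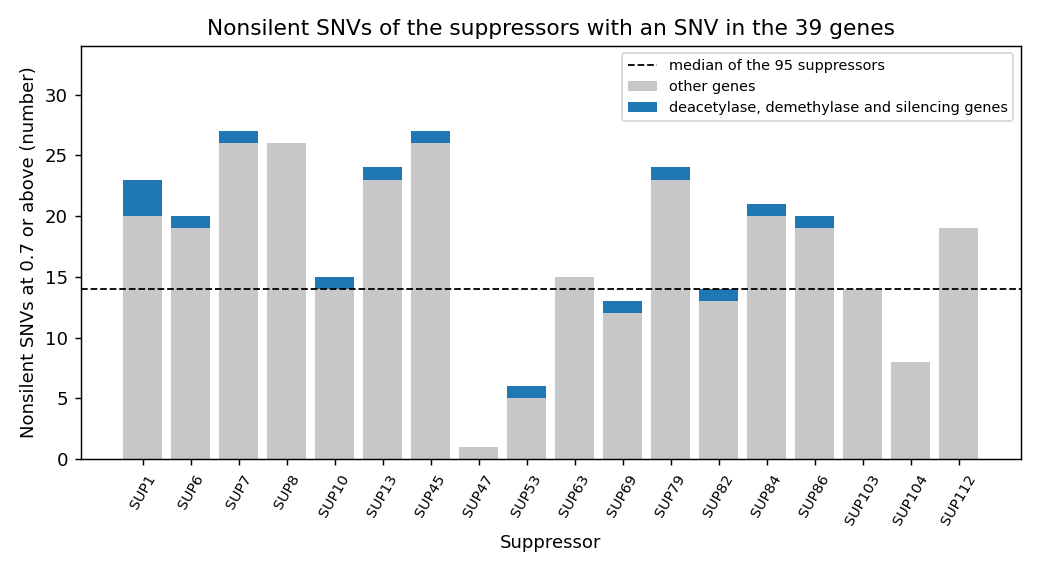
Number of nonsilent SNVs that reached 0.7 (y axis) in each of the 18 suppressors with any SNV in the 39 genes (x axis), with those in the 39 genes in blue and those in other genes in grey. The dashed line is the median of all 95 suppressors, 14. SUP1 has 3 SNVs in the 39 genes and 20 in others, and SUP47, whose SIR3 SNV lies under 0.7, has 1 nonsilent SNV in all.

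Stop codons were 2 of the 14 nonsilent SNVs in the 39 genes (14.3%, exact Clopper-Pearson 95% interval 1.78% to 42.8%). In other protein-coding genes they were 40 of 1277 (3.13%), a share inside that interval. The 1277 count each of 1182 distinct SNVs once per suppressor that carries it. Shared SNVs are not independent, so this share is given without an interval. Of the 39 genes 5.13% had a nonsense SNV at 0.7, against 0.664% of all protein-coding genes. Both genes, RPH1 and SIR4, are among the genes that the study names.

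Partners of these complexes outside the list were looked up as well, in 28 further genes. They were listed with earlier results of these data known, so their shares are given as a description only. Of these, 7 (25.0%) carried a nonsilent SNV at 0.7, each a missense SNV in a different suppressor, beside 16.5% of all protein-coding genes. They were the silencer-binding factor gene ABF1 (SUP22, allele frequency 1.0), NET1 (SUP94, 1.0) and TOF2 (SUP103, 1.0) of ribosomal DNA silencing, SWD1 of the Set1 complex (SUP62, 0.994), the ubiquitin protease gene UBP10 (SUP80, 1.0), and YKU70 (SUP106, 0.990) and YKU80 (SUP116, 0.996), whose products bind DNA ends and telomeres. The study chose SWD1 and YKU70 for deletion as genes mutated in the suppressors, and neither is among the genes whose deletion it reports as suppressing. None of the 7 suppressors had a nonsilent SNV at 0.7 in the 39 genes, but SUP103 has the SIR1 SNV at 0.605. At the deposited minimum, 8 of the 28 genes (28.6%) carried 9 nonsilent SNVs in 9 suppressors, beside 19.4% of all protein-coding genes. The additional ones were missense SNVs in BRE2 of the Set1 complex (SUP39, allele frequency 0.499) and in YKU70 (SUP117, 0.613). HST3 and SAS4 carried a synonymous SNV each.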

How the data were processed

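DNA libraries of 100 strains were sequenced in 3 experiments. The authors aligned the reads to sacCer2 with Novoalign 2.07.14, removed duplicates from the longer reads with Picard 1.81, counted bases with deepSNV, called SNVs over all libraries of an experiment together, discarded SNVs that reached 0.1 in a control, and used snpEff for annotation. The deposited score is an allele frequency in which 10 stands for 1.0, and it was read back as 1.0. A second column, the deposited count of libraries at 0.7 or above, was not used. The tables assign 1 gene to each SNV, so an SNV in overlapping genes is credited to 1 of them.

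SNVs were counted by gene and strain. No test was run, since each strain has 1 library, and intervals cover counting error only. Suppressors may share ancestry. The 39 genes, the 28 related genes and the complexes were chosen with earlier results of these data known. Named genes are all of the 39 with an SNV and the related genes with one. Gene names came from the R64 gene table, whose coordinates and lengths were not used. Of the genes with a nonsilent SNV at 0.7, 24 were not in that table as protein-coding genes and were left out of the shares. The counting was tested on simulated data. Alternatives were the minimum allele frequency, the control limit, shared and splice-site SNVs, chromosome XII and the gene list. Insertions, deletions and copy number were not analysed here. The software was scipy 1.17.1, pandas 2.3.3, matplotlib 3.10.9 and Python 3.11.15.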

Additional observations from a re-analysis of the deposited data

Results flagged for a closer look

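SNVs that lie in no annotated gene enter none of the counts above, and 9 of the 765 such SNVs in the table of the suppressors have one of the 39 genes as a neighbour. No count for other sets of genes is given beside it, so whether 9 is many or few cannot be read. The 9 are listed as a description only. The table gives for each SNV a gene it lies upstream of and a gene it lies downstream of; this reading held for all 3219 pairs of neighbours checked against the order of the gene table. Of the 9, 8 were at 0.7 or above, and 3 lay on the 5′ side of the gene. These were next to RXT3 in SUP14 (chromosome IV, G323126C, allele frequency 1.0), HOS2 in SUP67 (chromosome VII, T141745C, 0.902) and RIF2 in SUP126 (chromosome XII, A1043140G, 1.0, with 0.0053 in YJT75). The other 6 lay on the 3′ side, next to SET2 in SUP69 (G102052T, 1.0), SIR1 in SUP10 (A642370G, 1.0), SIR3 in SUP112 (C1019077T, 0.484), PHO23 in SUP68 (G440968T, 1.0) and in SUP27 (C441357T, 1.0), and EAF3 in SUP6 (A607528G, 0.991). Apart from that of RIF2, they were listed at 0 in YJT75. RXT3, HOS2, RIF2, SET2, PHO23 and EAF3 had no SNV inside the gene. SUP6, SUP10 and SUP69 also carried a nonsilent SNV in the 39 genes at 0.7. The distance to the gene and any effect on its expression were not measured.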

How the results depend on the processing

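The counts of nonsilent SNVs, suppressors and genes stayed within 1.5 times their value, and the nonsilent share stayed inside its interval, at a minimum of 0.40 or 0.9, with only SNVs at 0 in YJT75, with only SNVs found in 1 suppressor, with splice-site SNVs added and without chromosome XII. With the 28 related genes added, 19 suppressors and 19 genes had a nonsilent SNV. Another choice left out the 8 genes that the study names as mutated in these suppressors (RPH1, RPD3, SAP30, SIR1, SIR4, ESC1, SUM1 and RIF1). It was made after seeing the data, as was leaving out SUP1. It left 6 nonsilent SNVs in 4 suppressors and in 4 of the 31 remaining genes (12.9%), where 16.5% of all protein-coding genes were hit. Genes that the study deleted for other reasons, JHD2 among them, were kept. Each of the 8 carries a nonsilent SNV, so the counts and the share had to fall, and these values say nothing about the other genes. Without SUP1, 0 suppressors had nonsilent SNVs in more than 1 of the genes. SNVs per coding length were not computed, since no coding lengths were used, so no count or share here takes gene length into account. No paired analysis was possible because each strain has 1 library and strains share no replicate.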

Other observations

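Of the 95 suppressors, 49 share an SNV in GUD1, and 4 of them carried 4 of the 14 nonsilent SNVs. The other 46 suppressors held the remaining 10, in 8 strains. Transitions made up 6 of the 14 nonsilent SNVs (42.9%, exact Clopper-Pearson 95% interval 17.7% to 71.1%) and 464 of 1182 in other protein-coding genes (39.3%, interval 36.5% to 42.1%).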
